A study of Mus musculus with 9 samples.

Results

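The epithelial keratins Krt5, Krt7, Krt8, Krt14, Krt18 and Krt19 were examined in activated hepatic stellate cells (aHSCs), the liver pericytes that deposit scar matrix after injury. All array probes carrying 1 of these 6 gene symbols were taken, which gave 6 probes, 1 per gene, out of 45281 gene probes on the array. The 6 genes were chosen by their levels on these arrays, which earlier results had shown to differ between the in vivo groups and WT1-negative aHSCs. Expression had been measured on Illumina MouseWG-6 bead arrays, with 1 array per sample and 9 samples in 3 groups of 3. The labels give male mice of the strain C57/Bl6 and the genotype WT1GFP/+ for all 9 samples, while the study's methods name both sexes for in vitro work. Every sample, controls included, thus carried 1 WT1 allele in which green fluorescent protein (GFP) reports WT1 expression. WT1-high and WT1-intermediate aHSCs were the GFP high and GFP low cells sorted directly from livers scarred by repeated carbon tetrachloride injection. WT1-negative aHSCs were GFP negative cells, sorted after quiescent stellate cells had been activated by 7 days on plastic. The study states that the in vivo samples came from 3 animals, and the replicate numbers used here are those of the labels. WT1-negative cells from injured liver were not analysed here, and the study took the cells for culture from uninjured livers. Absence of WT1, growth in culture and absence of injury in the liver thus cannot be told apart.

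Keratins are the intermediate filament proteins of epithelial cells, and a filament forms only when an acidic type I keratin joins a basic type II keratin. Krt8 (type II) and Krt18 (type I) are the usual partners of simple, single-layered epithelia, where Krt7 (type II) and Krt19 (type I) are often added. Krt5 (type II) and Krt14 (type I) are the usual partners of the basal layer of stratified epithelia. In liver, hepatocytes carry Krt8 and Krt18, bile duct cells and the surface mesothelium also carry Krt7 and Krt19, and stellate cells are better known for vimentin and desmin filaments.

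The probes are shown because a level below belongs to a single 50-base stretch of each transcript and not to the whole gene. They were copied from the deposited tables, 5′ to 3′, and no other probe on the array had the same sequence. Their positions in the transcripts were not given, and the Krt14 probe, ILMN_2722616, is named only.
Krt5 (ILMN_2740939): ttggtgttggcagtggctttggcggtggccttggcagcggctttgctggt
Krt7 (ILMN_2961152): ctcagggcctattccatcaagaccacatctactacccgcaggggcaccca
Krt8 (ILMN_1221157): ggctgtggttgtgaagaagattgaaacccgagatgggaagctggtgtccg
Krt18 (ILMN_2711267): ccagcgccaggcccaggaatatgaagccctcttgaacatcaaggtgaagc
Krt19 (ILMN_2614462): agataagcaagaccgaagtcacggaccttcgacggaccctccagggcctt
The tables place Krt5, Krt7, Krt8 and Krt18 on chromosome 15 and Krt14 and Krt19 on chromosome 11. In the RefSeq annotation, Krt8 and Krt18 are neighbouring protein-coding genes on opposite strands, and their starts lie 23874 bases apart. A further probe, labelled with the older symbol Krt2-8, was detected on no array (raw intensities 78.3 to 96.9) and is not among the 6. It is counted with the other keratins below, and whether it reads Krt8 RNA was not checked.

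The promoters of Krt7, Krt8 and Krt18 are shown because these 3 genes had the closest profiles over the arrays among the tested keratins. For Krt19, also a keratin of simple epithelia, no promoter was matched. Each is the 250 bases before the RefSeq start (build GRCm38.p6), written 5′ to 3′ on the strand of the gene, with GC boxes (GGGCGG or its complement CCGCCC) in capitals.
Krt7 (chr15:101412153-101412402, plus strand): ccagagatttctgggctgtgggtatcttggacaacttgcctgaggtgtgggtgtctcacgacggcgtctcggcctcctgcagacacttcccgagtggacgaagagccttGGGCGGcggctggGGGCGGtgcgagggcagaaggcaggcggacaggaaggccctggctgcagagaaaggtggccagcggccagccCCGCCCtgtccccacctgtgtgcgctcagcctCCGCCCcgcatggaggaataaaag
Krt8 (chr15:102004343-102004592, minus strand): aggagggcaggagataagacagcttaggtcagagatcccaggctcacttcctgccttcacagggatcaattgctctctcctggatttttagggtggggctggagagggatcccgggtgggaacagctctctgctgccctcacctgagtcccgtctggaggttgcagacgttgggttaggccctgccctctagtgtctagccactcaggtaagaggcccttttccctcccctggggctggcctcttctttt
Krt18 (chr15:102027966-102028215, plus strand): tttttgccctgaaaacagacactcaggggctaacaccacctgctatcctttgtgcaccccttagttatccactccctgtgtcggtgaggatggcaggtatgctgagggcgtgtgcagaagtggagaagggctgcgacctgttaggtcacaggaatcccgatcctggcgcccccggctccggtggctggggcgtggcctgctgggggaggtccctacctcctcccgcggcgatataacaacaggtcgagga
The Krt7 window held 4 GC boxes, and those of Krt8 and Krt18 held none. Among 32851 promoter windows of the same length, 32.7% held a GC box. The letters TATAAA (12.4% of windows) and TGANTCA, the AP-1 element (6.7%), searched on both strands, were in none of the 3 windows.

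Mean signal per array lay between 147 and 289. It was 231 to 289 on the WT1-high, 147 to 221 on the WT1-intermediate and 246 to 256 on the WT1-negative arrays. Per array, 17253 to 19774 gene probes were detected, meaning with a detection p under 0.05. That p counts how often a negative control on that array outshone the probe. The median negative control signal was 76.3 to 93.6. Levels are log2 intensities after background correction and quantile normalization, so that a difference of 1 is a 2-fold change. A probe was tested if detected on at least 3 arrays, which 20573 probes were. A change was called where limma's p, adjusted over all these probes, was under 0.05. Levels of different probes were not set against each other, since probes differ in brightness. No probe matched the symbol Wt1, so the sort could not be checked on the gene that defines the groups.

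In outline, Krt7, Krt8, Krt14, Krt18 and Krt19 were plainly detected in WT1-high and WT1-intermediate aHSCs and were low or undetected in WT1-negative aHSCs, whereas Krt5 was detected nowhere. Krt14, undetected on the WT1-negative arrays, was at least 188-fold above them in the WT1-high group and at least 130-fold in the WT1-intermediate group. Between the in vivo groups the 5 detected keratins were 0.28 to 0.70 higher in WT1-high aHSCs, and none of these differences was called. That fit had no term for the animal, and some alternatives given below, among them replicate blocks, did call some of them. Krt7, Krt8 and Krt18 were detected on all 9 arrays, and Krt14 and Krt19 on the 6 in vivo arrays alone, so that the last pair passed the filter through those groups.

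**Figure D1:**
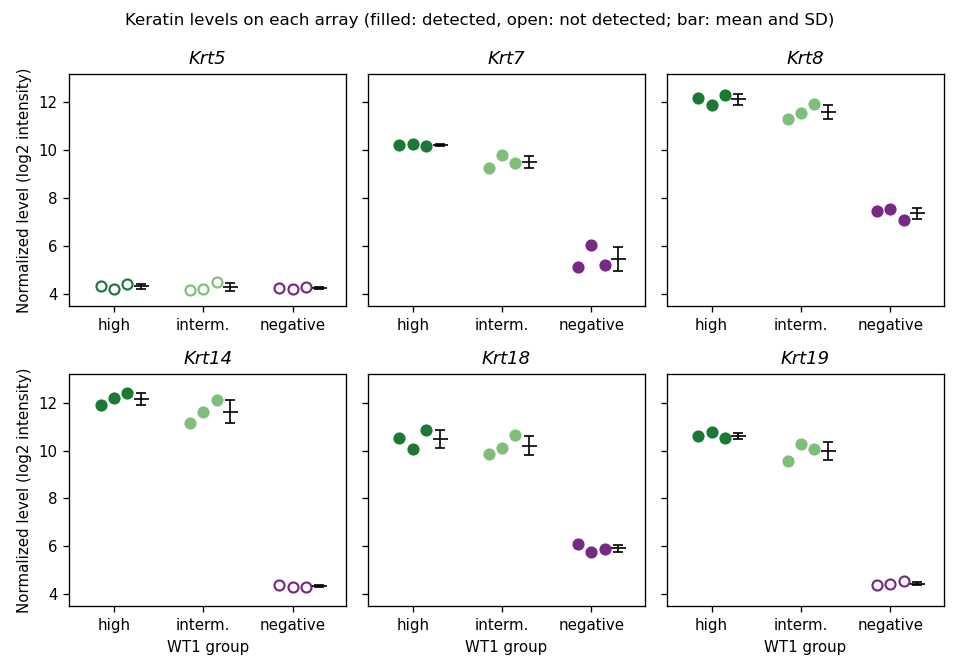
Normalized level (log2 intensity, vertical axis) of each keratin probe in the 3 WT1 groups (horizontal axis), with 1 point per array in the replicate order of the labels, filled where the probe was detected, and the mean and SD beside each group (n = 3). Krt5 was undetected in every group, and the other 5 keratins were separated between the in vivo groups and the WT1-negative group, with open points for Krt14 and Krt19 in the latter.

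The basal keratins came first. Krt14, the type I keratin of basal cells, had levels of 11.89, 12.19 and 12.38 in WT1-high replicates 1, 8 and 29. In WT1-intermediate replicates 1, 8 and 30 the levels were 11.16, 11.61 and 12.12. In WT1-negative replicates 3, 11 and 14 they were 4.38, 4.32 and 4.31. The in vivo groups overlapped, since the highest WT1-intermediate array was above the lowest WT1-high array, and both stood far above the WT1-negative arrays. The WT1-negative raw intensities of 94.0 to 96.4 were not distinguishable from negative controls (detection p 0.214 to 0.299).

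Krt5, the usual filament partner of Krt14, was not detected on any of the 9 arrays. Its mean level was 4.32 ± 0.11 on the WT1-high arrays, 4.29 ± 0.17 on the WT1-intermediate arrays and 4.24 ± 0.04 on the WT1-negative arrays (SD, n = 3). Raw intensities ran from 74.1 to 94.3, with detection p from 0.101 to 0.982. These values were in the range of negative controls in all groups, and say only that this probe gave no signal above them. Krt5 was not tested.

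Among the simple epithelial keratins, Krt8 had levels of 12.17, 11.89 and 12.32 on the WT1-high arrays. On the WT1-intermediate arrays they were 11.30, 11.56 and 11.92, and on the WT1-negative arrays 7.47, 7.53 and 7.09. The top WT1-intermediate array reached above the lowest WT1-high array, and no WT1-negative array came near either group. WT1-high aHSCs were 4.76 above WT1-negative aHSCs (27.2-fold) and WT1-intermediate aHSCs 4.23 (18.8-fold). The Krt8 probe was detected on the WT1-negative arrays too, at raw intensities of 234 to 289.

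Krt18, the type I partner of Krt8, had levels of 10.53, 10.08 and 10.84 in WT1-high aHSCs. The WT1-intermediate levels were 9.86, 10.11 and 10.64, and the WT1-negative levels 6.08, 5.77 and 5.89. The in vivo groups overlapped, and the WT1-negative arrays lay well below them while still being detected. The distances from WT1-negative were 4.57 for WT1-high (23.8-fold) and 4.29 for WT1-intermediate aHSCs (19.6-fold).

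Krt7, a type II keratin of ducts and other simple epithelia, had levels of 10.21, 10.25 and 10.18 in WT1-high aHSCs. The WT1-intermediate levels were 9.27, 9.78 and 9.48, and the WT1-negative levels 5.12, 6.06 and 5.21. Here the groups were fully separated, and the WT1-high arrays lay closest together. WT1-negative replicate 11 was the highest of its group, still over 3 below the lowest in vivo array. Krt7 differed from WT1-negative by 4.75 in WT1-high (26.9-fold) and by 4.05 in WT1-intermediate aHSCs (16.5-fold).

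Krt19, the smallest keratin and a marker of bile duct cells and of mesothelium in liver, had levels of 10.59, 10.76 and 10.50 in WT1-high aHSCs. The WT1-intermediate levels were 9.57, 10.28 and 10.06, and the WT1-negative levels 4.39, 4.42 and 4.54. The 3 groups did not overlap, and no WT1-negative array detected the probe (detection p 0.0769 to 0.203). The Krt19 level was at least 64.6-fold that of WT1-negative aHSCs in the WT1-high group and at least 41.3-fold in the WT1-intermediate group.

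Since the genes were chosen with the comparisons against WT1-negative aHSCs known, those distances are a description and carry no test. All 5 tested keratins were called higher in WT1-high aHSCs, where 59.6% of all probes were called and 26.5% were called higher. All 5 were also called higher in WT1-intermediate aHSCs, where 58% of all probes were called and 24.4% were called higher. The comparisons share the WT1-negative arrays. In sorted bulk RNA, a larger share of keratin-bearing cells and more keratin RNA per cell cannot be told apart.

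Setting WT1-high against WT1-intermediate aHSCs asked whether the strength of the WT1 signal among cells of the same livers goes with keratin level. All 5 differences were above 0, as were 57.1% of all probes tested. Their median was 0.53 beside 0.05 over all probes. In the fit reported, which had no term for the animal, none was called (limma, adjusted p 0.0864 to 0.595). Of all probes 3.55% were called, 0.904% higher and 2.64% lower. At an unadjusted p under 0.05 the count was 4, where 17.2% of all probes passed. Fits with a replicate block, given below, called 0, 1 or 2 of the keratins, depending on the block.

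Krt19 differed by 0.65 (SE 0.18, limma adjusted p = 0.0864) and Krt7 by 0.70 (SE 0.24, adjusted p = 0.145), the 2 keratins whose in vivo groups did not overlap. Over all probes, 11.5% were higher in WT1-high aHSCs without overlap. Krt8 differed by 0.53 (SE 0.20, limma adjusted p = 0.190) and Krt14 by 0.53 (SE 0.23, adjusted p = 0.259). Krt18 differed least, by 0.28 (SE 0.23, limma adjusted p = 0.595). On the linear scale these were 1.21-fold for Krt18 to 1.63-fold for Krt7.

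Setting each WT1-high array against the WT1-intermediate array taken to come from the same animal gave 14 of 15 differences above 0. The 15 are 5 keratins read on the same pairs of arrays, so they are not separate replicates. Over all probes the median was 0.05 (1 and 1), 0.03 (8 and 8) and 0.05 (29 and 30), and the share above 0 within a pair was not taken. Between the replicates numbered 1 the keratins differed by 0.66 to 1.02, with Krt19 the highest. Between those numbered 8 they differed by -0.03 to 0.58, with Krt18 the lowest. Between WT1-high 29 and WT1-intermediate 30 they differed by 0.20 to 0.70, with Krt7 the highest. The replicates numbered 1 thus gave the largest difference for each of the 5 keratins. With the animal as a fixed term in the fit, 29 and 30 being counted as 1 animal, Krt14 (adjusted p = 0.0467) and Krt19 (adjusted p = 0.0294) were called by limma. With the label numbers as a random term Krt19 was called (limma adjusted p = 0.0217). More of all probes were also called in these fits, 1656 with the fixed term and 1752 with the random term, in place of 730.

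**Figure D2:**
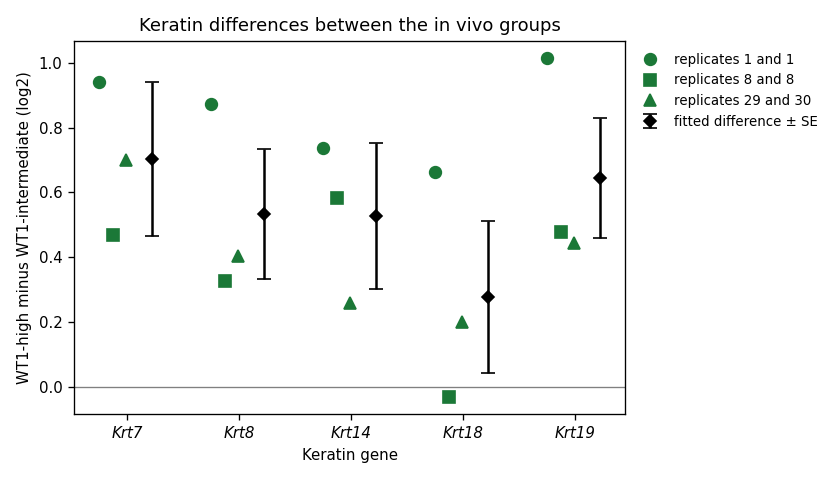
WT1-high minus WT1-intermediate difference (log2, vertical axis) of 5 keratins (horizontal axis), with 1 green marker for each pair of replicates and a black diamond with its SE for the fit over all arrays. Only the Krt18 value of the replicates numbered 8 (-0.03) lay below 0, and the replicates numbered 1 gave the highest value of each gene.

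These in vivo differences depended on how arrays were scaled. Before scaling, mean signal was 231 to 289 on the WT1-high and 147 to 221 on the WT1-intermediate arrays, without overlap. The part of this gap in the keratin differences was not tested. With each array scaled to its median in place of quantile normalization, all 5 were called, at 0.96 to 1.42, where 13% of all probes (2684 of 20573) were called in place of 3.55%. The median over all probes moved from 0.05 to 0.45 and 95.5% of calls were higher in place of 25.5%. The keratin median then lay 0.68 above that of all probes, beside 0.49 as reported.

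The rest of the keratin family was read from 62 other probes with 49 symbols. Of these, 39 were detected on no array, 17 on 1 or 2 arrays, and 6 passed the filter, namely Krt10, Krt17, Krt23, Krt75, Krt78 and Krt80. Krt10, a suprabasal keratin of stratified epithelia, was 1.09 higher in WT1-high than in WT1-negative aHSCs (limma adjusted p = 0.000778) and 0.89 higher in WT1-intermediate aHSCs (0.00300). Krt23, a type I keratin, was 1.24 (limma adjusted p = 0.00754) and 1.62 (0.00158) higher. Krt75, a type II hair follicle keratin, was 1.13 (limma adjusted p = 0.000369) and 0.74 (0.00604) higher by probe ILMN_2679759. Its other probes, ILMN_1251492 and ILMN_2679758, were detected on 0 and 1 arrays and were not tested. Krt17, Krt78 and Krt80 differed from WT1-negative by -0.20 to 0.29 and were not called. Further probes of Krt78 were detected on no array. Over all probes 26.5% were called higher in WT1-high and 24.4% in WT1-intermediate aHSCs. None of the 6 was called between the in vivo groups, beside 3.55% of all probes, and they differed there by -0.38 to 0.39.

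Genes that anchor keratin filaments at desmosomes and hemidesmosomes were next. Of 19 listed genes, 11 passed the filter, and 2 of them rose in WT1-high over WT1-intermediate aHSCs, beside the 0.904% of all probes called higher, with a list median of 0.39. These were Itgb4, the hemidesmosomal integrin subunit that binds the keratin network through plectin (1.06, SE 0.24, limma adjusted p = 0.0350), and Evpl, the desmosomal plakin envoplakin (0.88, SE 0.15, adjusted p = 0.00869). With the replicate blocks 3 (animal, by column names) and 4 (random term) were called. Of all probes, 1656 and 1752 were called with these blocks, in place of 730. The lowest difference was -0.18, for the plakophilin Pkp4. Against WT1-negative aHSCs 9 of the 11 rose and 2 fell in the WT1-high group, and 8 rose and 2 fell in the WT1-intermediate group. In those comparisons 59.6% and 58% of all probes were called, 26.5% and 24.4% higher, and these shares are the background of each list count against WT1-negative that follows. The lists were chosen with earlier results known, so these counts are a description. A gene with a fold given as at least a value was undetected on every WT1-negative array and passed the filter through the in vivo groups. The desmosomal cadherin Dsg2 rose by 5.20 and 4.79, and the plakin Ppl was at least 25.5-fold higher in the WT1-high group. Pkp4 (-1.56 and -1.38) and the integrin subunit Itga6 (-0.75 and -0.99) were the 2 that fell. Dsp, which encodes the main desmosomal plakin, was among the 7 that did not pass the filter (2 arrays), and Eppk1 was not analysed here.

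Of the other intermediate filament genes, Vim, which encodes the vimentin of mesenchymal cells, had mean levels of 12.02 in WT1-high aHSCs, 11.74 in WT1-intermediate aHSCs and 11.90 in WT1-negative aHSCs, and was called in no comparison. Of 9 tested genes Des (desmin, a stellate and muscle cell filament) alone was called between the in vivo groups, 1.40 higher in WT1-high aHSCs (SE 0.33, limma adjusted p = 0.0453). Over all probes 3.55% were called there, 0.904% higher. Against WT1-negative aHSCs 3 rose and 3 fell in the WT1-high group, and 3 rose and 5 fell in the WT1-intermediate group. Prph, a neuronal filament gene, was at least 9.63-fold and at least 14.5-fold higher, and Nes (nestin) fell (-2.23 and -1.94). The list medians in these comparisons were 0.05 and -0.45.

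Among transcription and splicing factors of epithelial cells, 7 of 18 passed the filter. None was called between the in vivo groups, beside 3.55% of all probes, with differences from 0.03 (Klf4) to 0.63 (Foxa1) and a median of 0.36. In WT1-high aHSCs 5 rose and 1 fell against WT1-negative, and in WT1-intermediate aHSCs 2 rose and 2 fell, beside 26.5% and 24.4% of all probes called higher. Klf4, a factor of epithelial differentiation that many other cells also express, rose by 4.24 and 4.21, and Ovol2 fell (-0.76 and -0.81). Foxa1, a pioneer factor of endodermal epithelia, differed by -0.36 in WT1-high aHSCs (limma adjusted p = 0.375, not called) and fell by 0.99 in WT1-intermediate aHSCs (adjusted p = 0.0249). Trp63, the regulator of the basal cell program to which Krt5 and Krt14 belong, was detected on 1 array, and Grhl2 and Esrp1 on none.

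**Figure D3:**
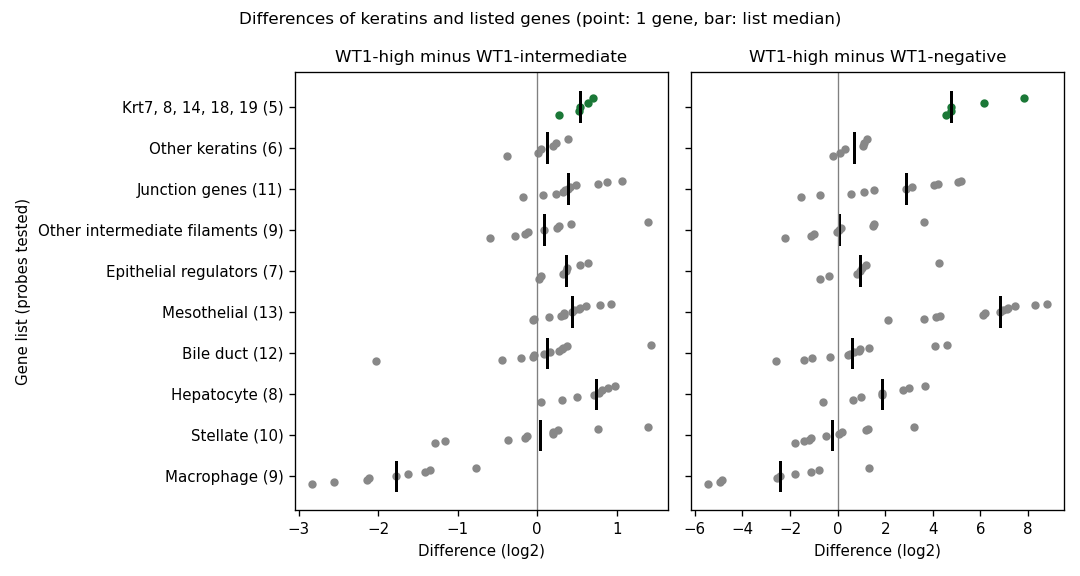
Differences (log2, horizontal axis) of WT1-high from WT1-intermediate (left) and from WT1-negative aHSCs (right) for the 5 tested keratins (green) and for each other list (grey, number tested in brackets), with 1 point per probe and a bar at the list median. The keratins, chosen for the difference on the right, had a median of 0.53 on the left, the mesothelial median on the right was 6.82, and the macrophage median lay below 0 in both (-1.78 and -2.41).

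Markers of other cell types that carry keratins, or that could be sorted with the aHSCs, were set beside the keratins, and their part in the keratin differences was not tested. Mesothelial markers were the furthest from WT1-negative of the 5 marker lists. All 13 tested of 17 rose in both in vivo groups against WT1-negative, with medians of 6.82 and 6.28. Their mean level was 10.47 to 10.77 on the WT1-high, 10.08 to 10.48 on the WT1-intermediate and 4.51 to 4.64 on the WT1-negative arrays. Among them Dmkn, Gpm6a, Lrrn4, Muc16, Rspo1, Efemp1 and Prg4 were undetected on every WT1-negative array and passed the filter through the in vivo groups. This list was chosen with earlier results known, so its distance from WT1-negative is a description and carries no test. Dmkn, an epithelial secreted protein, was at least 347-fold and at least 183-fold higher, and Msln (mesothelin) rose by 7.16 and 6.55. Between the in vivo groups 1 rose, Dmkn (0.92, SE 0.17, limma adjusted p = 0.0159), beside 0.904% of all probes called higher, and the list median was 0.43. The Dmkn value is that of its brightest probe, and another Dmkn probe, ILMN_3105563, differed by 0.61. With either replicate block, by column names or random, 4 were called. These blocks called 1656 and 1752 of all probes in place of 730. Of the list, Crb2 and Calb2 were each detected on 1 array, and Wt1 and Pdpn were not analysed here.

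Of the bile duct markers, the surface antigen Epcam was detected on no array, and the surface proteins Prom1 and Cd24a on 1 array each. Of 12 tested, 7 rose and 1 fell in WT1-high and 5 rose in WT1-intermediate aHSCs against WT1-negative, beside 26.5% and 24.4% of all probes called higher, with medians of 0.62 and 0.48. Tspan8, a tetraspanin, was at least 20.7-fold and at least 17.0-fold higher. Between the in vivo groups the tight junction gene Cldn3 rose (1.43, SE 0.16, limma adjusted p = 0.000846) and Spp1 (osteopontin, also made by macrophages) fell by 2.03 (SE 0.38, adjusted p = 0.0160). Over all probes 0.904% were called higher and 2.64% lower there. The mean level of the list was 6.45 to 6.65, 6.41 to 6.58 and 5.64 to 6.15 in the 3 groups.

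Of the hepatocyte markers, Alb, Fgb and Fabp1 were detected on no array and Cps1 on 2. Of 8 tested, 7 rose and 1 fell in WT1-high and 4 rose and 1 fell in WT1-intermediate aHSCs against WT1-negative. Ttr, the transport protein transthyretin, rose by 3.68 and 3.63, and Hnf4a, a hepatocyte transcription factor, fell (-0.60 and -0.91). Between the in vivo groups none was called, beside 3.55% of all probes. With the animal as a block by column names 3 were called, and with the random block 1, where 1656 and 1752 of all probes were called in place of 730. All 8 in vivo differences of the hepatocyte markers were above 0, with a median of 0.75. The mean level ran from 6.39 to 8.03 over the WT1-high, from 6.25 to 7.38 over the WT1-intermediate and from 5.47 to 5.74 over the WT1-negative arrays.

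Stellate cell markers gave 3 rises and 5 falls in WT1-high and 3 rises and 4 falls in WT1-intermediate aHSCs against WT1-negative, out of 10 tested. Colec11, a collectin, was at least 7.63-fold and at least 6.38-fold higher. Acta2, the smooth muscle actin of activated cells, fell (-1.78 and -2.55), and Lrat, a defining gene of vitamin A storage, was detected on 1 array. Between the in vivo groups Des and Acta2 (0.76, limma adjusted p = 0.0348) rose, and Pdgfrb (fell by 1.28, adjusted p = 0.00545) and Hgf (fell by 1.16, adjusted p = 0.0411) fell in WT1-high aHSCs. Over all probes 0.904% were called higher and 2.64% lower there.

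Of 9 tested macrophage markers, 6 fell in WT1-high against WT1-intermediate aHSCs, with a median of -1.78, beside the 2.64% of all probes called lower. The largest fall was that of the complement gene C1qa (-2.83, SE 0.16, limma adjusted p = 7.35e-06). Against WT1-negative 1 rose and 7 fell in the WT1-high group, and 1 rose and 3 fell in the WT1-intermediate group. Clec4f, a Kupffer cell lectin, was at least 1.97-fold higher in the WT1-high group and at least 4.99-fold in the WT1-intermediate group, and C1qa fell by 5.44 in the former. The mean level of the list was 7.61 to 8.23 on the WT1-high, 9.35 to 10.08 on the WT1-intermediate and 10.40 to 10.48 on the WT1-negative arrays. The part of this shift in the keratin differences was not tested.

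**Figure D4:**
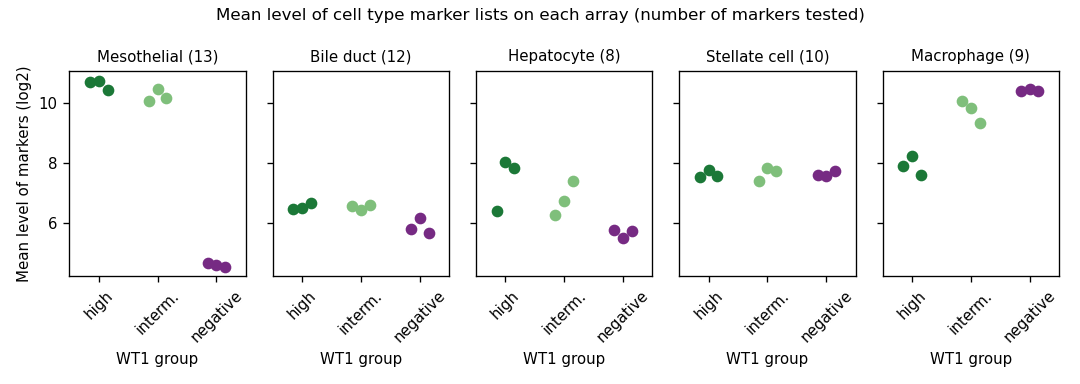
Mean log2 level of each marker list (vertical axis) on every array of the 3 WT1 groups (horizontal axis), with the number of tested markers in brackets and 1 point per array in the replicate order of the labels. Mesothelial markers separated the WT1-negative arrays (4.51 to 4.64) from the in vivo arrays (10.08 and above), and macrophage markers were lowest on the WT1-high arrays (7.61 to 8.23).

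Each keratin was last set against all 20573 probes by the root mean square (RMS) log2 distance between profiles over the 9 arrays, after each profile was centred on its own mean. This is a description over arrays that fall into the same 3 groups. Krt8 and Krt18 lay 0.20 apart, and Krt18 was the second nearest gene to Krt8. Both had Anxa8, an annexin, as the nearest gene, at 0.18. Rab6b (0.21) was the third nearest to Krt8, and Crym (0.20) the second nearest to Krt18.

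Krt7 was nearest to the cadherin gene Cdh3 (0.18), followed by Rab6b (0.23) and Lrrc1 (0.26), and lay 0.30 from Krt8 and 0.45 from Krt18. Krt19 was nearest to Wfdc1 (0.15), followed by the claudin genes Cldn15 and Cldn10 (0.16 each). Krt14 had no neighbour as close, and its nearest genes were Dmkn (0.29), Rarres2 (0.37) and Prg4 (0.38). Dmkn, Prg4 and Cldn15 were also on the mesothelial list, where Dmkn was read by another probe. Krt14 lay 0.84 from Krt19 and 1.45 to 1.53 from Krt7, Krt8 and Krt18.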

How the data were processed

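RNA from 9 sorted samples was hybridised to 9 Illumina bead arrays. The deposited values were the authors' BeadStudio probe profiles, linear intensities without normalization, with a deposited detection p-value beside each. A joined table held the same intensities (largest difference 0). The third WT1-intermediate array was numbered 29 in its column and 30 in its label, and matched its sample in the joined table. The 2 detection p columns of that number were not used, and the detection p of that array was computed from its negative controls. Computed in this way on the other 8 arrays, it differed from the deposited p by at most 0.00107 and moved 0 values across the threshold.

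Intensities were background corrected with the arrays' negative controls, quantile normalized and log2 transformed with neqc (offset 16) in limma 3.58.1 and R 4.3.3, following the authors' outline. Probes detected (p under 0.05) on 3 or more arrays entered the fit. A linear model of the 3 groups over 9 arrays, with 6 residual and 5.19 prior degrees of freedom, was tested with limma's moderated two-sided test. P-values were adjusted by Benjamini-Hochberg over 20573 probes. On simulated data with 200 probes changed by 2, 97.5%, 96.5% and 95.5% were recovered in WT1-high against WT1-intermediate, WT1-high against WT1-negative and WT1-intermediate against WT1-negative, with 12, 11 and 5 false calls. The keratin differences between the in vivo groups, 0.28 to 0.70, were smaller than the planted change. How often differences of that size would be called was not tested. A fold is a lower bound ("at least") where every array of the dimmer group lacked detection, and was then taken against the dimmest detected probe of each such array. Such a bound holds for this background correction and offset only.

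The keratins and gene lists were chosen with earlier results of these data known. Named were all keratin probes that were members, other keratins past the filter, 2 to 4 examples per list from the genes with the largest differences in each direction, and the 3 nearest genes of each keratin. Further list genes (Vim, Msln and undetected markers) were named for their role, after their values were seen. Of 115 list genes, 104 were matched by symbol, 6 by Entrez ID and 5 not at all. A list gene was given by its brightest probe, and a nearest gene by whichever of its probes lay closest. Promoters are from RefSeq tables, which matched 5 of 6 keratins, all but Krt19. That of Krt14 did not start at the gene's end, and Krt5 was undetected. These 2 are not shown.

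Replicate numbers were taken to pair the in vivo arrays, since the study states 3 animals. Deviations from group means correlated at 0.34 to 0.47 within pairs and at -0.39 to 0.03 otherwise. Deviations sum to 0 within each group, so high values within pairs force low ones elsewhere. The value of 29 with 30 is thus no separate support for that pair. WT1-high 29 was paired with WT1-intermediate 30 by the column name, a choice made after seeing the data. Alternatives covered background correction, scaling, offset, filter, samples fitted, array weights, replicate blocks, a fold threshold and leaving out arrays. Precision is limited by the 3 arrays per group. Figures were drawn with matplotlib 3.10.9 in Python 3.11.15.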

Additional observations from a re-analysis of the deposited data

How the results depend on the processing

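No difference of a keratin turned direction under any alternative run. Over the alternatives, 273 values kept their side of the threshold and 11, all between the in vivo groups, became calls. The number of keratins called there, 0 as reported, was 1 without background correction (Krt7), 5 with median scaling, 1 with a random replicate block (Krt19), 2 with a fixed replicate block by column names (Krt14 and Krt19), and 0 to 1 when leaving out arrays. It was 1 without WT1-intermediate replicate 8 (Krt19, 0.80, limma adjusted p = 0.0450) and 1 without WT1-negative replicate 11 (Krt7, 0.70, adjusted p = 0.0444). With a fixed replicate block on the label numbers, where only 1 and 8 recur, it was 0. Against WT1-negative, 3 keratins were called with detection required on all 9 arrays, since Krt14 and Krt19 then left the test. The fixed block on label numbers was read for the in vivo comparison only and gave no values against WT1-negative. The size of the distances from WT1-negative depended on the background correction and offset. For Krt14 they were 7.82 (WT1-high) and 7.29 (WT1-intermediate) as reported. Without background correction they were 5.70 and 5.19, and with an offset of 50 they were 6.41 and 5.88. The folds given as at least a value were taken at the reported settings only. Of the listed genes, 15 were called between the in vivo groups as reported, 28 with median scaling, 7 without a filter and 7 when only the compared groups were fitted, 23 with the random replicate block, 26 with that by column names, and 8 to 16 when leaving out arrays, with 8 without WT1-high replicate 8 and 9 without WT1-high replicate 29. The cause was not tested. Over all probes, 730 were called as reported, 1752 and 1656 with those 2 blocks, 2684 with median scaling, 335 without a filter, 339 when only the compared groups were fitted, 445 at 2-fold or more, and 324 to 866 when leaving out arrays (the lowest being 324 without WT1-intermediate replicate 1, then 333 and 371 without the WT1-high arrays numbered 8 and 29). Signal over negative controls limits what can be said of Krt5 in all groups and of Krt14 and Krt19 in WT1-negative aHSCs.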
